A study of Mus musculus with 2 samples.

Results

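Venous endothelial cells that are not high endothelial cells were examined in tumour-draining inguinal lymph nodes of the mouse. They were chosen by measured transcripts. A cell entered when it held no Prox1, Ptprc, Chst4 or Fut7 molecule, at most 1 molecule of Cd79a and Cd3e together, at least 2 of Cdh5, Pecam1 and Egfl7 together, and at least 3 of Ackr1, Selp and Vwf together. This gate found 121 cells among the 8091 that passed the limits on depth, genes and mitochondrial share. They are called venous-gate cells, because some of them went against the venous label, as described below.

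Both groups were pools of nodes, which all drained a tumour. The first library came from 9 nodes and is called KO here. Its sample label reads ATG5 KO, while the title and design of the series read ATG5LEC-KO, taken here as a deletion of the autophagy gene Atg5 in lymphatic endothelial cells (LECs). The second came from 13 nodes of wild-type mice (WT). The labels used here do not give the Cre line, the deleted exon, the strain, the tumour, the age or the number of mice. From each pool, sorted CD31+ endothelial and CD45+ immune cells were combined into 1 single-cell library, so no difference between the genotypes has a replicate check and no p-value is given. The venous-gate cells, 49 in KO and 72 in WT, are not the cell type in which Atg5 was targeted. Atg5 had 16 molecules in them in KO and 7 in WT, and these 3' end counts do not check the deletion.

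Postcapillary venules and veins are the vessels at which leukocytes leave the blood. Their endothelium stores P-selectin (Selp) with von Willebrand factor (Vwf) in Weibel-Palade bodies, and carries ACKR1, an atypical receptor that binds and presents chemokines. The nuclear receptor COUP-TFII, encoded by Nr2f2, maintains venous identity by holding back Notch signalling. In lymph nodes a specialised venule, the high endothelial venule (HEV), makes sulphated and fucosylated sialomucins with enzymes such as Chst4 and Fut7, and L-selectin on lymphocytes binds to them.

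Levels are given in CPM: the molecules of a gene summed over the cells of a class, per 1000000 molecules of that class without mitochondrially encoded genes. Brackets hold exact 95% intervals, which cover counting error only and not the spread between mice. A gene counted as measured with at least 20 molecules over the groups compared, in each library where classes were compared, and a difference was called at 2-fold, in both libraries for a comparison of classes. Where a group held 0 molecules, the ratio was taken against 3 molecules and is a bound. Venous-gate cells held a median of 6812 molecules in KO (1440 to 22221) and 5512 in WT (1734 to 15653). None of them shared a cell index with the other library, against 14 cells of each library in all, and Scrublet called none of them a doublet. It called only 0.738% of all cells in KO and 0.719% in WT, so the lack of a call says little about the members.

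The 3 gate genes did not mark the same cells. Ackr1 (chr1:173331886-173333750, minus strand, mm10) had a molecule in 20 cells of KO and 36 of WT. Selp (chr1:164115264-164150026, plus strand) had one in 40 cells of KO and 47 of WT, and Vwf (chr6:125546774-125686679, plus strand) in 30 cells of KO and 56 of WT. All 3 were present together in 9 cells of KO and 21 of WT, so most members lacked at least 1 of them. The summed gate count had a median of 5 and a maximum of 33 in KO, and a median of 8.5 and a maximum of 121 in WT. Just inside the threshold, with a sum of exactly 3, stood 11 cells of KO and 12 of WT, of which 5 in each library held Nr2f2. Just outside it, with a sum of 2, stood 16 cells of KO, 5 of them with Nr2f2, and 17 of WT, 4 of them with Nr2f2.

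Nr2f2 (chr7:70351944-70366735, minus strand), which the gate did not use, had its highest summed level in venous-gate cells among the blood endothelial classes compared. In KO it stood at 320 CPM (263 to 386), against 81.6 (68.1 to 97.0) in capillary-gate cells and 156 (85.2 to 262) in HEV-gate cells. In WT it stood at 581 CPM (510 to 658), against 113 (97.3 to 131) in capillary-gate cells and 271 (194 to 367) in HEV-gate cells. The venous-gate intervals of both libraries lay above those of the other classes. A molecule was found in 61.2% of venous-gate cells against 22.9% of capillary-gate cells in KO, and in 70.8% against 21.9% in WT. In HEV-gate cells the share was higher, at 70% in KO and 75% in WT, with medians of 9859 and 6192 molecules a cell. By share of cells, Nr2f2 was thus not highest in venous-gate cells. With cells thinned to 3000 molecules and shallower cells left out, the shares were 46.8% of 47 venous-gate cells against 16.4% of 226 capillary-gate cells in KO, and 59.3% of 59 against 18.5% of 243 in WT. B cells, which should lack Nr2f2, gave 0.222% at a median of 2641 molecules in KO and 0.674% at 2630 molecules in WT. The capillary gate asked for at least 3 molecules of Cd36, Gpihbp1 and Rgcc together, at most 2 of the venous gate genes, and no Chst4, Fut7, Gja5 or Bmx, and held 293 cells of KO and 329 of WT. The HEV gate asked for at least 2 molecules of Chst4 and Fut7 together, and held 10 cells of KO and 24 of WT.

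Markers of LECs and of cells outside the endothelium were low in venous-gate cells, in part by the gate. It holds Prox1 and Ptprc, the CD45 gene, at 0, and Cd79a and Cd3e together at no more than 1 molecule a cell. The low B cell, T cell and myeloid sums are therefore no independent check. The 7 LEC markers, Prox1 included, summed to 126 CPM in KO and 138 in WT, against 10618 CPM in LECs of KO and 8172 in LECs of WT. Of 9 mural cell markers 3 were detected in each library, summing to 55.7 CPM in KO and 87.7 in WT, and the pericyte and smooth muscle genes Pdgfrb, Myh11, Cspg4, Notch3 and Des were at 0 in both. Fibroblastic reticular cell markers summed to 2.93 CPM in KO and 47.4 in WT, with Pdgfra, Col1a1, Col1a2, Lum, Ccl19 and Cxcl13 at 0 in both. The stromal molecules that were found came mostly from Tagln, with 16 in KO and 22 in WT, and from Col3a1, with 0 in KO and 18 in WT, which lay in 2 cells. B cell markers summed to 20.5 CPM in KO and 4.74 in WT, T cell markers to 29.3 in KO and 14.2 in WT, myeloid markers to 61.6 in KO and 21.3 in WT, and red cell markers to 0 in KO and 2.37 in WT. Platelet markers summed to 114 CPM in KO and 16.6 in WT, and all 25 Ppbp molecules of KO lay in 1 cell.

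Inside the blood endothelium the label was less clean. Gja5, which encodes the arterial gap junction protein connexin 40, or the arterial kinase gene Bmx had a molecule in 4 venous-gate cells of KO and 9 of WT. None of the 4 held Nr2f2, whereas 6 of the 9 did. Glycam1, the major sialomucin of HEVs, had at least 5 molecules in 5 cells of each library although Chst4 and Fut7 were at 0 by the gate. The 3 molecules of Cd36, Gpihbp1 and Rgcc that admit a capillary-gate cell were met by 30 of 49 venous-gate cells in KO (61.2%) and 32 of 72 in WT (44.4%). These shares differ between the genotypes, and their part in the genotype differences given below was not tested.

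**Figure D1:**
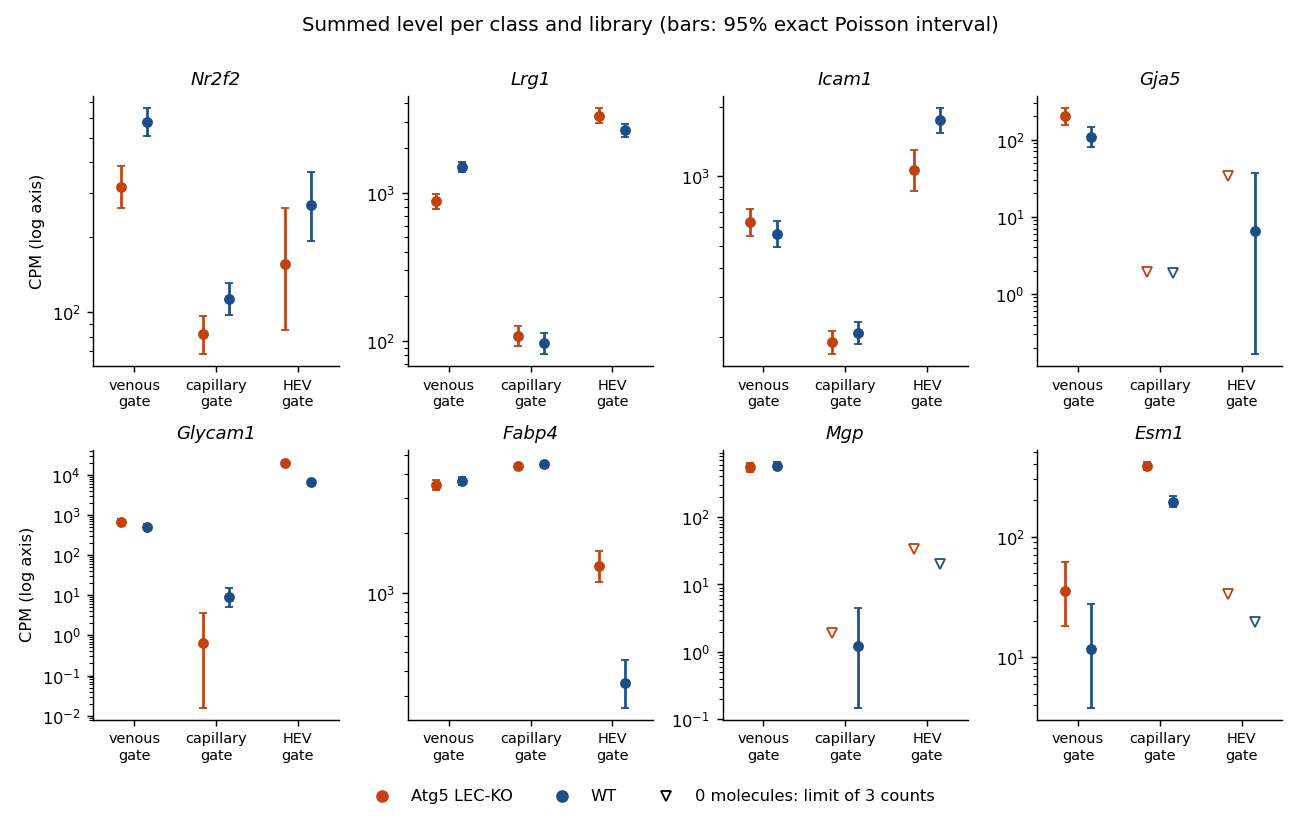
Summed level (CPM, log axis, a separate scale in each panel) of 8 genes in venous-gate, capillary-gate and HEV-gate cells, KO (Atg5 LEC-KO) and WT; bars are exact 95% Poisson intervals and open triangles mark the limit of 3 counts where a class held 0 molecules. Nr2f2 was highest in venous-gate cells, Lrg1 lay between capillary-gate and HEV-gate cells, Mgp had 2 molecules in WT capillary-gate cells and none in the other comparison classes, and Gja5 is 0 in capillary-gate cells by their gate.

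Cells that entered through Ackr1 carried more venular and more HEV transcripts than those that entered on Selp without it, and none of the Gja5. The Ackr1 route held 20 cells of KO and 36 of WT, the Selp route without Ackr1 held 25 of KO and 24 of WT, and 4 cells of KO and 12 of WT entered on Vwf alone. Lrg1, a secreted leucine-rich glycoprotein of venules, was at 2196 CPM in Ackr1 cells of KO, 266 in the Selp route and 0 with Vwf alone, and at 2099, 1048 and 741 CPM along the same order in WT. Enpp2, which makes lysophosphatidic acid at HEVs, was at 3140 CPM in Ackr1 cells against 92.0 in the Selp route in KO, and at 2352 against 507 in WT. WT cells with Vwf alone were an exception for Enpp2, at 2831 CPM. The 10 HEV markers summed to 6533 CPM in Ackr1 cells against 765 in the Selp route in KO. In WT they summed to 4214 against 1291, and to 4894 with Vwf alone. At least 5 Glycam1 molecules were found in 4 Ackr1 cells of each library. The 12 venous markers outside the gate summed to 8891 CPM against 5593 in KO, and to 9937 against 8076 in WT. Masp1, a protease gene of the lectin pathway of complement, was at 180 CPM in Ackr1 cells against 33.9 in the Selp route in KO, and at 187 against 6.76 in WT, with 0 molecules in cells with Vwf alone.

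The arterial genes Gja5 and Sema3g lay almost wholly outside the Ackr1 route, although 2 Ackr1 cells of WT held Bmx. Gja5 had 0 molecules in Ackr1 cells of both libraries. In the Selp route it was at 315 CPM in KO and 142 in WT, and with Vwf alone at 129 in KO and 331 in WT. Few cells carried these counts: the 65 molecules of the Selp route in KO were in 3 cells, and the 21 in WT were in 1. Sema3g, which encodes an arterial semaphorin, had 1 molecule in Ackr1 cells of KO and none in WT, against 426 CPM in KO and 216 in WT in the Selp route. Aplnr, the apelin receptor gene, was at 162 CPM in Ackr1 cells against 1070 in the Selp route in KO, and at 540 against 858 in WT. By summed level Nr2f2 did not separate the routes in WT, at 570 CPM in Ackr1 cells and 590 without Ackr1. In KO it was at 504 CPM in Ackr1 cells and 231 without. The share of cells with Nr2f2 gave another picture. It was 86.1% in Ackr1 cells and 55.6% without Ackr1 in WT, against 65% and 58.6% in KO.

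**Figure D2:**
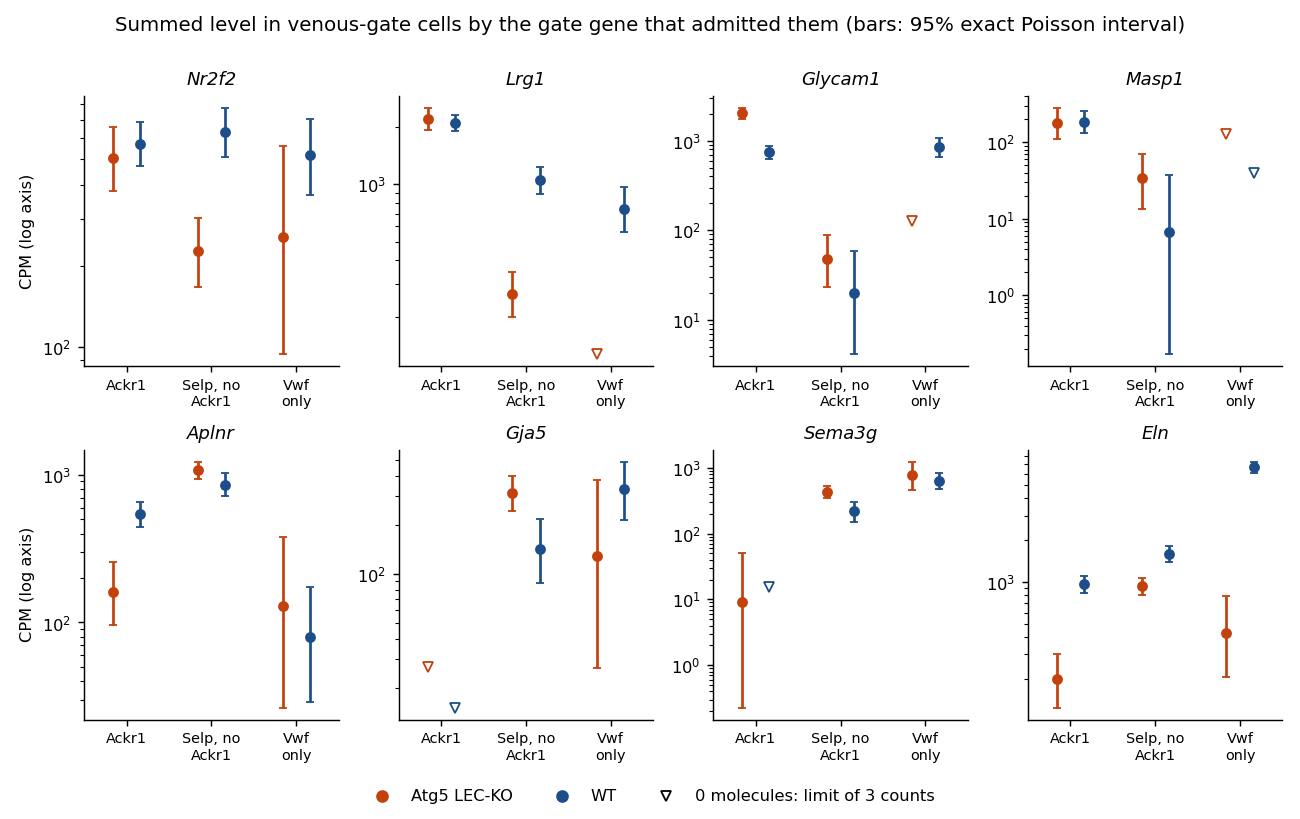
Summed level (CPM, log axis, a separate scale in each panel) of 8 genes in venous-gate cells, divided by the gate gene that admitted them (Ackr1, Selp without Ackr1, or Vwf alone), KO (Atg5 LEC-KO) and WT; bars are exact 95% Poisson intervals and open triangles the limit of 3 counts. Masp1 was highest in Ackr1 cells of both libraries, and Gja5 had no molecule there.

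Venous-gate cells differed from capillary-gate cells by venous markers, complement genes and part of the matrix genes on the higher side, and by capillary markers and genes of VEGF signalling and fatty acid uptake on the lower side. Of 8569 measured genes, 156 (1.82%) were at least 2-fold higher in both libraries and 226 (2.64%) at least 2-fold lower, together 4.46%. Among 12 venous markers that the gate did not use, 11 were higher in both libraries and 6 of them at least 2-fold, among them Bgn, Icam1, Lrg1, Nr2f2 and Sele. Their median log2 ratio was 1.32 in KO and 1.84 in WT, against -0.003 in KO and -0.03 in WT over all measured genes. Of 9 measured capillary markers 7 were lower in both libraries, 2 of them at least 2-fold (Btnl9 and Tcf15).

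Matrix genes led the higher side. Mgp, whose protein inhibits calcification and binds BMPs, had 185 molecules in venous-gate cells against 0 in capillary-gate cells in KO, at least 286-fold higher, and 244 against 2 in WT, 468-fold (128 to 3886) higher. Those molecules lay in only 7 cells of KO and 13 of WT. Eln, which encodes elastin, was at 657 CPM against 37.3 in KO, a ratio of 17.6 (13.2 to 23.9), and at 2210 against 45.1 in WT, a ratio of 49.0 (38.6 to 63.0). It was found more widely, in 34.7% of venous-gate cells in KO and 54.2% in WT. Col5a2, a fibrillar collagen chain gene, had 57 molecules against 2 in KO and 164 against 5 in WT, and the gelatinase gene Mmp2 had 31 against 0 in KO and 125 against 6 in WT. Bgn, which encodes the proteoglycan biglycan, was 10.7-fold higher in KO and 66.7-fold in WT, and Sulf1, which encodes a heparan sulphate sulphatase, 12.1-fold in KO and 13.4-fold in WT.

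The matrix list as a whole lay on both sides. Of its 19 measured genes 6 were at least 2-fold higher in both libraries (Bgn, Ccn2, Eln, Fbn1, Fn1 and Mgp) and 4 at least 2-fold lower (Lama4, Lamb1, Lamc1 and Nid2). The lower ones encode laminin chains and a nidogen of the basement membrane. Lama4 stood at 296 CPM against 799 in KO and at 209 against 740 in WT. A cell with at least 5 molecules of Mgp, Eln and Bgn together, a limit set after their values were seen, occurred 13 times in KO and 29 times in WT among venous-gate cells, and 8 times in KO and 3 times in WT among capillary-gate cells. All 4 cells of KO with Gja5 or Bmx and 6 of the 9 of WT were among them. Without the cells holding Gja5 or Bmx, which the capillary gate bars, 139 genes were at least 2-fold higher and 259 lower.

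Single adhesion genes and most complement genes were also higher. Of 13 measured leukocyte adhesion genes 4 were higher and 5 lower in both libraries, with a median log2 ratio of -0.22 in KO and 0.19 in WT, and Sele and Icam1 alone passed 2-fold. Sele, which encodes E-selectin, was at 85.1 CPM against 2.53 in KO, a ratio of 33.6 (11.8 to 132), and at 240 against 3.09 in WT, a ratio of 77.5 (32.1 to 244). Icam1, whose product binds leukocyte β2 integrins, was 3.31-fold (2.77 to 3.96) higher in KO and 2.69-fold (2.27 to 3.19) in WT. Vcam1, whose product binds the integrin VLA-4, lay in opposite directions, at 55.7 CPM against 127 in KO and at 111 against 23.5 in WT. Of 9 measured complement genes 8 were higher in both libraries and 6 at least 2-fold, with a median log2 ratio of 1.83 in KO and 2.17 in WT. Among the 6 were the protease genes C1ra and C1s1 and the regulator genes Cd55, Cd59a and Clu, whereas the regulator gene Cd46 was at least 2-fold lower. Cd55, whose product speeds the decay of the C3 convertase, was at 82.1 CPM against 11.4 in KO and at 133 against 35.9 in WT.

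Single genes of haemostasis, vascular tone and signalling were among the higher ones. Of 16 measured haemostasis genes Entpd1 and Procr were at least 2-fold higher and none was 2-fold lower. Procr, the endothelial protein C receptor gene, was at 299 CPM against 109 in KO and at 320 against 61.8 in WT. Entpd1, whose product breaks down ATP and ADP at the vessel surface, was at 490 CPM against 226 in KO and at 673 against 186 in WT. Edn1, which encodes the vasoconstrictor endothelin-1, was 3.89-fold (2.58 to 5.84) higher in KO and 14.8-fold (9.50 to 23.7) in WT. The vasoactive list lay on both sides, with 3 of 14 measured genes at least 2-fold higher (Ace, Edn1 and Ptgs1) and 3 at least 2-fold lower (Adm, Ednrb and Tbxa2r). The transcription factor genes Foxc1 and Meox2 passed 2-fold beside Nr2f2. Bmp4, a BMP ligand gene, had 24 molecules against 3 in KO and 46 against 1 in WT. Ptprj, a receptor tyrosine phosphatase gene, was 17.2-fold higher in KO and 23.97-fold in WT, but cells holding Gja5 or Bmx had 35 of its 37 molecules in KO, and without them the log2 ratio of KO was -0.008.

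Glycam1 and Ccl21a, both known from HEVs, were among the leading 12. Glycam1 had 234 molecules against 1 in KO and 214 against 15 in WT, and a single venous-gate cell held 42.7% of them in KO and 29.4% in WT. Ccl21a, a CCR7 ligand gene, had 127 molecules against 19 in KO and 90 against 3 in WT. Ctsh, a lysosomal cysteine protease gene, had 18 molecules against 2 in KO and 108 against 8 in WT. B cells also hold Ctsh, at 205 CPM in KO and 206 in WT, beside the low B cell marker sums given above, which the gate in part fixes.

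On the lower side stood genes of sprouting and capillary endothelium. Esm1, a tip-cell proteoglycan gene induced by VEGF, had 12 molecules against 607 in KO, a ratio of 0.092 (0.047 to 0.161), and 5 against 316 in WT, a ratio of 0.061 (0.020 to 0.143). Of 13 measured VEGF and Angiopoietin-Tie genes 4 were at least 2-fold lower in both libraries (Angpt2, Esm1, Flt4 and Nrp1) and none 2-fold higher. Cxcr4, the CXCL12 receptor gene, was at 14.7 CPM against 214 in KO and at 9.49 against 135 in WT. Igfbp3, whose product binds insulin-like growth factors, was at 466 CPM against 3450 in KO and at 394 against 2724 in WT. Btnl9, a butyrophilin-like gene of capillaries, was at 93.9 CPM against 571 in KO and at 30.8 against 853 in WT. Nos2, the inducible nitric oxide synthase gene, had 2 molecules in each library, against 166 in KO and 258 in WT.

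Single Notch pathway genes and most fatty acid uptake genes were also lower. Hey1, a Notch target, was at 35.2 CPM against 96.8 in KO and at 9.49 against 82.2 in WT, and Unc5b, a netrin receptor gene, at 20.5 against 176 in KO and at 30.8 against 236 in WT. Notch4 lay close to the 2-fold limit, at ratios of 0.499 (0.386 to 0.637) in KO and 0.433 (0.326 to 0.566) in WT. Dll4, Notch1 and Jag1 did not pass that limit in both libraries. Dll4 had ratios of 0.522 in KO and 0.386 in WT, Notch1 of 0.786 in KO and 0.842 in WT, and Jag1 of 3.09 in KO and 1.75 in WT. Of 8 measured fatty acid uptake genes 6 were lower in both libraries, 2 of them at least 2-fold (Acsl1 and Lpl). Fabp4, a fatty acid chaperone gene, differed little, at 3511 CPM against 4388 in KO and at 3678 against 4483 in WT. The other genes named by the rule, Gm12002, Clic5, Abcc9, Sez6l2, Ephb1 and Trp53i11, had ratios of at most 0.235 in KO and 0.217 in WT.

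**Figure D3:**
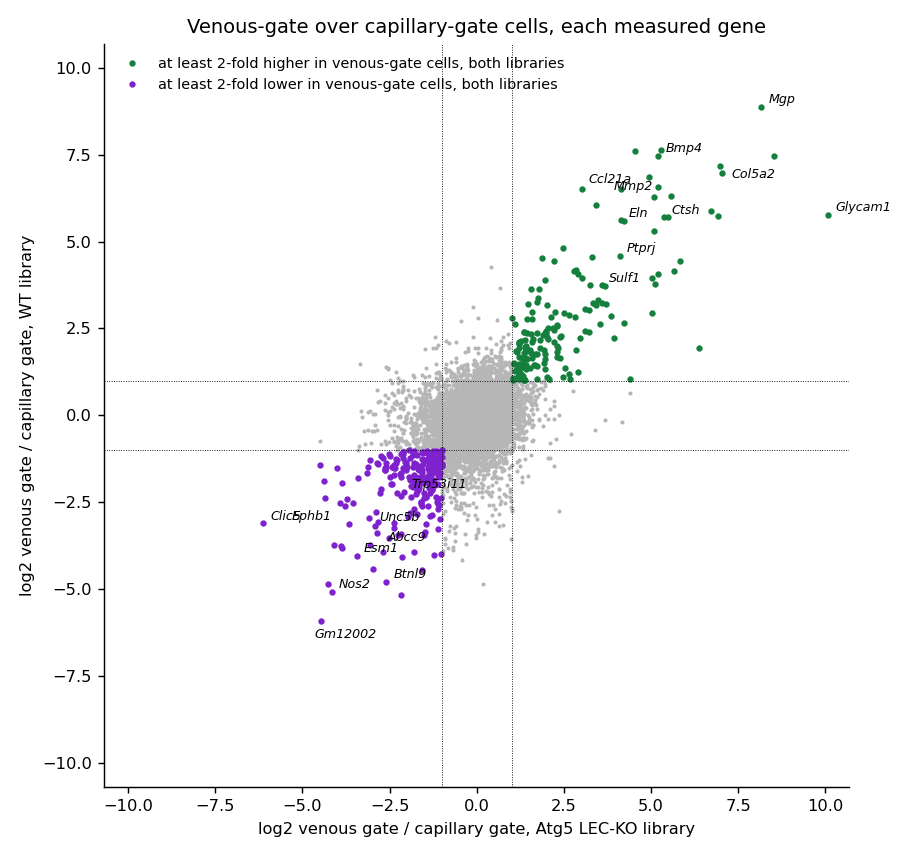
The log2 ratio of venous-gate over capillary-gate level in KO (Atg5 LEC-KO, x axis) and in WT (y axis), 1 point per measured gene; dotted lines mark 2-fold, coloured points are past it in both libraries, and genes with 0 molecules in 1 class stand at the limit of 3 counts. The 156 higher genes include Mgp, Glycam1 and Eln, and the 226 lower ones Esm1, Clic5 and Gm12002.

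Against HEV-gate cells, matrix genes were again higher in venous-gate cells, and the enzymes and secreted proteins of HEVs were lower. Of 4267 measured genes 227 (5.32%) were at least 2-fold higher in both libraries and 106 (2.48%) at least 2-fold lower, together 7.8%. The median log2 ratio of all measured genes was 0.146 in KO and 0.091 in WT. With 10 HEV-gate cells in KO, the intervals are wide. Of 19 measured matrix genes 16 were higher in both libraries and 11 at least 2-fold, with medians of 2.13 in KO and 1.26 in WT. Mgp, Bgn, Mest and Col5a2 had 0 molecules in HEV-gate cells of both libraries, and Bgn was at least 11.3-fold higher in KO and at least 41.7-fold in WT.

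Fibulin, apelin and anticoagulant genes stood with the matrix. Fbln2, which encodes an elastic fibre fibulin, was 12.4-fold (6.85 to 24.9) higher in KO and 9.13-fold (6.68 to 12.8) in WT. Fbln5, another fibulin gene and also on the arterial marker list, had 335 molecules against 15 in HEV-gate cells in KO and 429 against 0 in WT. Of 6 measured arterial markers 5 were higher in both libraries and 3 at least 2-fold (Efnb2, Fbln5 and Sema3g). Of 7 measured capillary markers 4 were higher and 1 lower, with Fabp4 and Fabp5 at least 2-fold higher. Aplnr was 7.08-fold (3.67 to 15.7) higher in KO and 6.16-fold (3.60 to 11.4) in WT, and its ligand gene Apln had no molecule in HEV-gate cells. Cavin2, a caveolar coat gene, was 5.35-fold higher in KO and 7.93-fold in WT, and Fstl1, Cald1 and S100a6 lay between 7.11-fold and 77.6-fold over both libraries. Of 15 measured haemostasis genes 6 were at least 2-fold higher, among them Anxa2, Nos3, Plau, Procr and Pros1, and 1 lower (F8). Nr2f2 was 2.05-fold (1.17 to 3.88) higher in KO and 2.15-fold (1.54 to 3.07) in WT.

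Glycam1 led the lower side, at 686 CPM against 19973 in HEV-gate cells in KO and at 507 against 6519 in WT. Ccl21a followed, with 127 molecules against 447 in KO and 90 against 585 in WT, although HEV-gate cells were fewer. Of 7 measured HEV markers 6 were lower in both libraries and 4 at least 2-fold (Enpp2, Gcnt1, Glycam1 and St3gal6). Gcnt1, which builds the core 2 branch of L-selectin ligands, was at 35.2 CPM against 356 in KO and at 30.8 against 191 in WT. Complement proteases and clusterin, higher than in capillary-gate cells, were lower than in HEV-gate cells, with C1ra, C1s1, Cfb and Clu past 2-fold. Clu was at 437 CPM against 3340 in KO and at 531 against 2692 in WT. Lrg1 also lay between the other classes, at 877 CPM in KO and 1487 in WT, against 3296 in HEV-gate cells of KO and 2633 in those of WT, and 108 in capillary-gate cells of KO and 96.4 in those of WT. The serpin genes Serpinb1a, Serpina1e and Serpina1b, with Pglyrp1, Dsg2 and Oit1, had ratios between 0.119 and 0.181 in KO and between 0.123 and 0.189 in WT.

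Between the genotypes, venous-gate cells of KO held more transcripts of most interferon-stimulated and MHC class II genes and fewer of most venous markers, complement genes and immediate early genes. Of 6450 measured genes 371 (5.75%) were at least 2-fold higher in KO than in WT and 421 (6.53%) at least 2-fold lower, together 12.3%. In capillary-gate cells, which were more numerous, the shares were 2.29% higher and 3.55% lower. Single cells carried many of the calls: without the cell that held most of a gene's molecules in the library where it was higher, 184 of the 371 (49.6%) and 252 of the 421 (59.9%) stayed past 2-fold. The make-up of the gate also differed, by the shares of Ackr1 cells and of cells with capillary transcripts above, and such a difference cannot be told apart from one within a cell type over the whole gate.

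Interferon-stimulated genes were mostly higher. Of 36 measured genes 32 were higher in KO, 16 of them at least 2-fold, and 1 was at least 2-fold lower, with a median log2 ratio of 0.81 against 0.0002 over all genes. Cxcl9, a CXCR3 ligand gene induced by interferon-γ (chr5:92321347-92328079, minus strand), had 507 molecules in KO and 82 in WT, or 1487 CPM in KO and 194 in WT, a ratio of 7.65 (6.05 to 9.78). It was found in 11 cells of KO, 197 molecules of it in 1 cell, and in 9 cells of WT, 57 in 1 cell. Without the top cell of KO the ratio was 4.84 (3.78 to 6.25). The share of cells with Cxcl9 was 22.4% in KO and 12.5% in WT, against 0.89% of B cells in KO and 0.135% in WT. Barcodes with 10 to 100 molecules, which hold mostly free RNA, had Cxcl9 at 199 CPM in KO and 36.1 in WT, so free Cxcl9 was also more abundant in KO, and its part in the result was not tested. The guanylate-binding protein gene Gbp2, an interferon effector, had 219 molecules in KO and 67 in WT, a ratio of 4.04 (3.06 to 5.40), and Gbp5 had 78 in KO and 16 in WT, a ratio of 6.03 (3.49 to 11.1).

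The upstream sequences of Gbp2 and Gbp5 are shown because these genes stand with Cxcl9 among the leading interferon genes and hold the letters of interferon elements. They are RefSeq sequence on GRCm38.p6, from 250 bases before to 50 after the start, at chr3:142620413-142620712 for Gbp2 and chr3:142496684-142496983 for Gbp5, both on the plus strand. Capitals mark matches on either strand to the core of the interferon-stimulated response element (ISRE), GAAA repeated after any 2 bases, or to the core of the gamma-activated site (GAS), TTCNNNGAA. No capitals of the one overlap the other.
Gbp2: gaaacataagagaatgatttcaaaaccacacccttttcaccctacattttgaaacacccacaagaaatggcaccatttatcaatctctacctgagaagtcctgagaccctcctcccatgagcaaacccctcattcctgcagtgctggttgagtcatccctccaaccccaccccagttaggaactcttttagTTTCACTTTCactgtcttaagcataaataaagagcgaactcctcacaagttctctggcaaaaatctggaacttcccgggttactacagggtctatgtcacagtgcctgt
Gbp5: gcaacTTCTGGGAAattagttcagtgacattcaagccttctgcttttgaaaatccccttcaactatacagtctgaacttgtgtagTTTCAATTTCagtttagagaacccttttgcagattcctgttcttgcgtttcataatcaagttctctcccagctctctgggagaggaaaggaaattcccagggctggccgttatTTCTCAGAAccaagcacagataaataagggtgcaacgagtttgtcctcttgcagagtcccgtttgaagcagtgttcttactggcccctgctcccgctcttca
The Gbp2 window held an ISRE match that begins at position -59 from the start. The Gbp5 window held an ISRE match at -165 and GAS matches at -245 and -52. Among 32851 RefSeq promoters of this length 3.44% held the ISRE letters and 8.30% the GAS letters. The windows of Cxcl9 and Ubd held neither. A match describes letters and not binding.

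The interferon difference was uneven among cells. A single cell of KO held the most molecules of 14 of the 16 genes called higher. It carried 785 of the 4177 molecules of the list in KO, the next 3 cells carried 462, 298 and 263, and the median cell 47. With that cell left out, 27 of 34 measured genes were higher, 8 of them at least 2-fold, and the median log2 ratio was 0.52. Rsad2, an antiviral gene, had a ratio of 3.16 (1.41 to 7.76) with all cells and 0.995 (0.315 to 3.003) without its top cell.

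The difference was larger in cells without Ackr1 than in Ackr1 cells. Among the first (29 in KO, 36 in WT), 30 of 32 measured interferon genes were higher and 16 at least 2-fold, with a median log2 ratio of 1.03. Over all genes measured in these cells 417 of 4736 were at least 2-fold higher, with a median of 0.03. Among Ackr1 cells (20 in KO, 36 in WT), 12 of 25 were higher and 4 at least 2-fold, with a median of -0.04. Over all genes measured there 182 of 3435 were at least 2-fold higher, with a median of -0.05. The genes measured differed between the routes: Gbp5, Igtp, Tgtp2 and Rsad2 were measured only without Ackr1. In capillary-gate cells 37 of 44 were higher and 7 at least 2-fold, with a median of 0.40. Gbp2 stood at 892 CPM in KO and 197 in WT without Ackr1, and at 126 CPM in KO and 116 in WT with it. Cxcl9 had 490 molecules in KO without Ackr1 and 17 with it, so its top cell was one without Ackr1. The values of the routes are not given without the cell that led most interferon genes. The difference between the routes was not tested. The sexes of the cells differed along with it: by Y-linked and Xist transcripts, cells without Ackr1 were 18 male and 5 female in KO against 15 male and 11 female in WT, and Ackr1 cells 7 male and 11 female in KO against 17 male and 11 female in WT. Their part in the result was not tested beyond male cells alone, in which the interferon median over the whole gate was 1.15.

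MHC class II genes, which serve antigen presentation to CD4 T cells, were higher in KO as well. All 4 that were measured (Cd74, H2-Aa, H2-Ab1 and H2-Eb1) were at least 2-fold higher, with a median log2 ratio of 1.66. The difference was not particular to venous-gate cells. In capillary-gate cells all 7 measured genes were higher and 6 at least 2-fold, with a median of 2.40. Cd74, the invariant chain gene, had 193 molecules in KO and 50 in WT, a ratio of 4.77 (3.48 to 6.65), in 22.4% of cells in KO and 19.4% in WT. Cd74 is abundant in B cells, at 10442 CPM in KO and 10311 in WT. The B cell markers of venous-gate cells came to 7 molecules in KO and 2 in WT, which the gate in part fixes. The barcodes with mostly free RNA held Cd74 at 1492 CPM in KO and 1555 in WT, above its 566 CPM in KO and 119 in WT in venous-gate cells. Ubd, which encodes the ubiquitin-like protein FAT10 induced by interferon-γ and TNF, was 4.30-fold (3.47 to 5.37) higher. Unlike Gbp2 it stood apart in both routes, at 1638 CPM in KO and 384 in WT with Ackr1, and at 857 CPM in KO and 148 in WT without. The 14 MHC class I genes had a median of 0.25, with none past 2-fold.

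**Figure D4:**
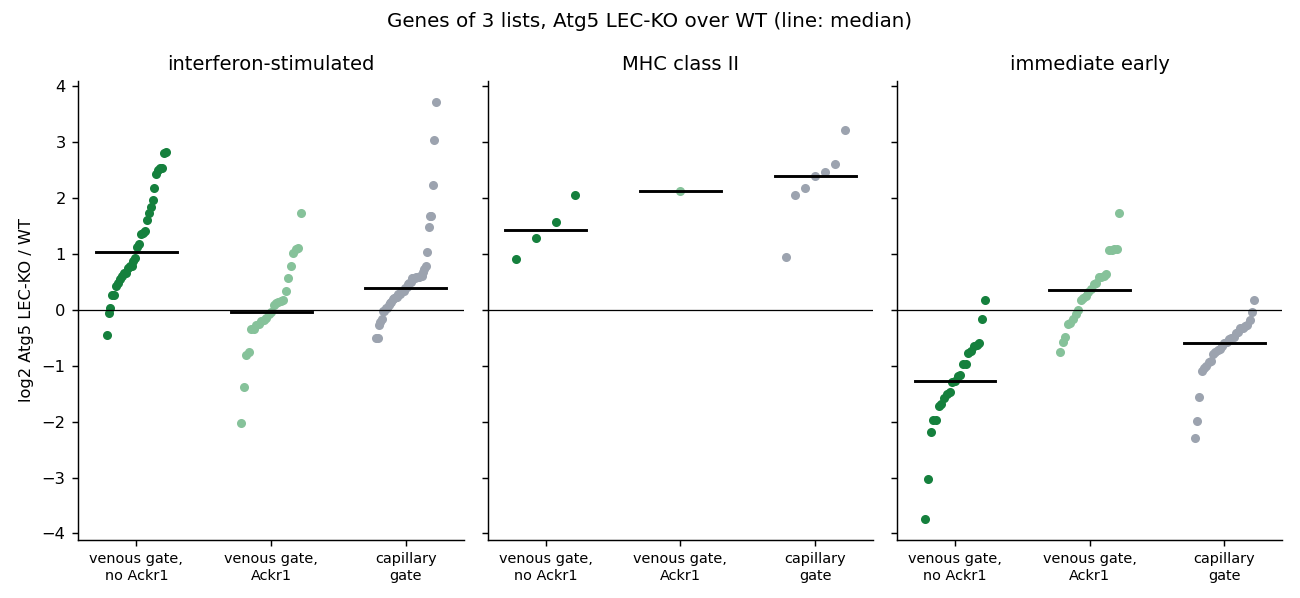
The log2 ratio of KO (Atg5 LEC-KO) over WT level (y axis) for each measured gene of 3 lists, in venous-gate cells without Ackr1, venous-gate cells with Ackr1 and capillary-gate cells; points are genes and black lines medians. Interferon-stimulated genes had medians of 1.03, -0.04 and 0.40 and immediate early genes of -1.27, 0.35 and -0.59. MHC class II had medians of 1.43, 2.13 and 2.40, which rest on 4, 1 and 7 genes.

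Immediate early genes, which respond within minutes to growth factors, stress or handling, were lower in KO. The list also holds heat shock genes, namely Hspa1a, Hspa1b, Hsp90aa1 and Dnajb1. Of 25 measured genes 20 were lower and 5 of them at least 2-fold (Egr3, Hspa1a, Ier2, Myc and Socs3), with a median log2 ratio of -0.33. Without their top cells 2 of the 5 stayed past 2-fold (Hspa1a and Ier2), and with each cell weighted equally the median was -0.08. Among cells without Ackr1 22 of 23 were lower, with a median of -1.27, whereas among Ackr1 cells 17 of 24 were higher, with a median of 0.35. Over all measured genes 2283 of 4736 were lower without Ackr1, and 1612 of 3435 were higher in Ackr1 cells. Egr1, a zinc finger transcription factor gene, stood at 218 CPM in KO and 984 in WT without Ackr1, and at 2205 CPM in KO and 1464 in WT with it. In capillary-gate cells 26 of 27 were lower, with a median of -0.59.

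Venous markers were lower in KO. Of 12 outside the gate 10 were lower and 3 of them at least 2-fold, among them Bgn and Sele, with a median log2 ratio of -0.73. Nr2f2 had a ratio of 0.550 (0.435 to 0.692) and Lrg1 of 0.590 (0.512 to 0.678). Within Ackr1 cells the median of the 11 measured markers was -0.21, and without Ackr1 that of 12 was -0.93. Without their top cells 1 of the 3 stayed past 2-fold, and Bgn had a ratio of 0.526 (0.424 to 0.649). The gate genes were lower too, which is no result because they chose the cells: Ackr1 was at 232 CPM in KO and 434 in WT, Selp at 622 in KO and 984 in WT, and Vwf at 419 in KO and 1065 in WT. Eln had a ratio of 0.297 (0.256 to 0.344), and 7 of 8 measured complement genes were lower, with a median of -0.57. The eighth, Serping1, was 3.12-fold higher. Neither of the 2 complement genes called lower stayed past 2-fold without its top cell, and in Ackr1 cells 3 of 6 were lower, with a median of 0.05.

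Other higher genes named by the rule were found in few cells. Smad6, which encodes an inhibitor of BMP signalling, had 46 molecules in KO and 8 in WT, and 1 cell held 54.3% of those in KO. Col13a1, a transmembrane collagen gene, had 22 molecules in KO and 1 in WT, and Ramp3, which encodes a subunit of adrenomedullin receptors, 21 in KO and 1 in WT. Of the imprinted genes, Peg3 had 25 molecules in KO and 2 in WT, and Mest 151 in KO and 48 in WT. Flrt2, which encodes an adhesion and guidance protein, was 7.05-fold (3.57 to 15.5) higher, and Gm13387 13.6-fold (4.27 to 69.3). Mest and Flrt2 lay the other way in Ackr1 cells, Mest with 1 molecule in KO and 12 in WT, and Flrt2 at 36.0 CPM in KO and 40.4 in WT. None of these 7 was past 2-fold in capillary-gate cells, where their ratios lay between 0.837 and 1.96.

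The lower genes named by the rule included secreted and stress proteins. Mt2, a metallothionein gene, had 2 molecules in KO and 91 in WT, 51.6% of them in 1 cell. Il6, the interleukin 6 gene, had 4 molecules in KO and 55 in WT. Of the 10 WT cells with Il6, 8 were Ackr1 cells, a route in which KO held none. Ackr3, which encodes a scavenger receptor for CXCL12, had 7 molecules in 5 cells of KO and 72 in 19 cells of WT, a ratio of 0.120 (0.047 to 0.261), while capillary-gate cells held 162 CPM in KO and 166 in WT. Crip1, a LIM domain protein gene, had 30 molecules in KO and 210 in WT, a ratio of 0.177 (0.116 to 0.260), and was lower in capillary-gate cells as well, at 0.216 (0.166 to 0.277).

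The rest of the lower genes were also read from few molecules in KO. Cytl1 had 15 molecules in KO and 151 in WT, Fndc1 1 in KO and 61 in WT, and Cthrc1 7 in KO and 72 in WT, all 3 encoding secreted or matrix-associated proteins. Adamts5, a matrix protease gene, had 6 molecules in KO and 62 in WT. Dusp2 and Nfkbid, induced regulators of MAP kinase and NF-κB signalling, had 5 and 2 molecules in KO against 88 and 44 in WT. Ret, a receptor tyrosine kinase gene, had 0 molecules in KO and 31 in WT, which bounds its ratio at 0.120.

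**Figure D5:**
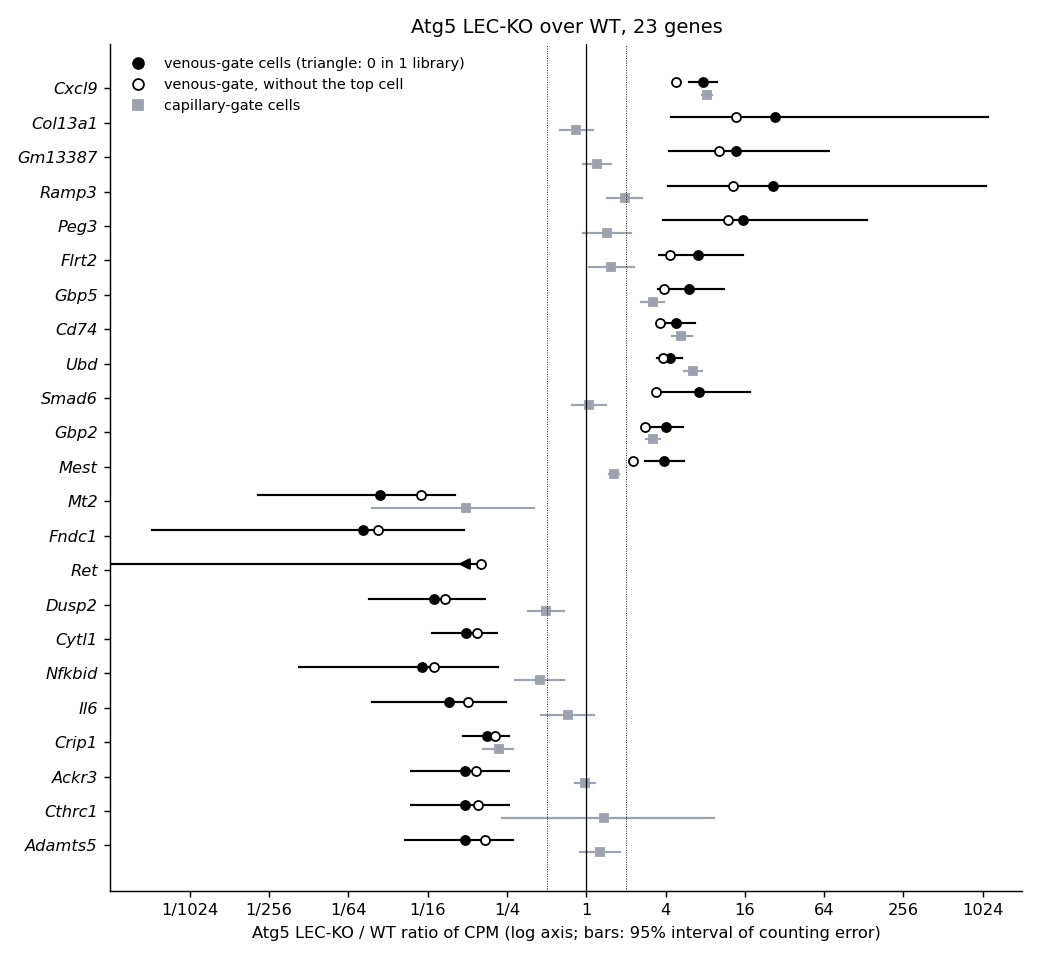
Ratio of KO (Atg5 LEC-KO) over WT level (x axis, log scale) for 23 genes named by the rule; black points and bars are venous-gate cells with 95% intervals of counting error, open points the ratio without the cell that holds the most molecules, triangles a limit against 0 molecules, and grey squares capillary-gate cells where both libraries held enough molecules. Cxcl9, Gbp5, Cd74, Ubd and Gbp2 were higher in KO in both classes, and Ackr3 lay near 1 in capillary-gate cells.

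The share of venous-gate cells differed by less than counting error. They made up 49 of 483 cells of the blood endothelial gate in KO, or 10.1% (7.60 to 13.2, exact binomial), and 72 of 652 in WT, or 11.04% (8.74 to 13.7). The difference was -0.898 points (-4.58 to 2.92). With cells thinned to 3000 molecules and shallower cells left out, which kept 359 cells of the blood endothelial gate in KO and 459 in WT, the share was 8.36% in KO and 11.3% in WT, and the difference was -2.97 points (-7.17 to 1.37).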

How the data were processed

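Cells of 1 library per genotype were read on the BD Rhapsody platform, which counts 3' ends of transcripts with molecular identifiers. Per the file headers, the authors ran the BD Rhapsody WTA Analysis Pipeline 1.11 on an mm10 reference, did not exclude intronic reads, and deposited molecule counts for every barcode after error correction of the identifiers, without cell calls or annotation. The submitters' processing notes also name mm10. The files held 45647078 reads and 23089918 molecules in KO, and 48832612 reads and 23649554 molecules in WT.

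Barcodes with at least 1200 molecules, at least 200 genes and at most 25% mitochondrial molecules were kept as cells, 4198 in KO and 3893 in WT. Scrublet (scanpy 1.11.5, expected rate 0.06) called 31 doublets in KO and 28 in WT, which were kept and left out in an alternative. Gates were applied to molecule counts, and the 17 gate genes stayed out of all counts of genes. Counts were summed per class, levels carry exact Poisson intervals, ratios exact conditional binomial intervals, and shares exact Clopper-Pearson intervals (scipy 1.17.1). No test across samples was possible. The members, the gene lists and the alternatives were chosen with earlier results of these data known. Named genes were, for each comparison, up to 12 in each direction past 2-fold, with a molecule in at least 10% of cells of the higher class, ranked by the interval bound nearest to 1, besides gate genes and list members. A few genes that the rule or the lists name are not reported here. The ratio step was tested on simulated data. Gene positions are from GENCODE M21 (GRCm38) and promoter sequences from RefSeq, of which 13 of 14 genes searched were found.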

Additional observations from a re-analysis of the deposited data

Results flagged for a closer look

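Flagged here are 15 genes that lay on opposite sides in venous-gate and capillary-gate cells between the genotypes. They are not all such genes. Rsad2, higher in KO in venous-gate cells, stood at -0.217 in capillary-gate cells, and Myc, lower in KO in venous-gate cells, at 0.178. With 1 library per genotype this difference was not tested. The values are log2 ratios of KO over WT.

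Higher in KO in venous-gate cells were Apln (1.097), Btnl9 (1.606), Cd300lg (0.28), Dsg2 (0.696), Mki67 (1.307), Top2a (3.084). In capillary-gate cells the same genes stood at Apln (-0.22), Btnl9 (-0.578), Cd300lg (-0.16), Dsg2 (-0.93), Mki67 (-0.463), Top2a (-0.32). One cell held 85.4% of the Top2a molecules of KO. On the linear scale the ratio of Top2a was 8.48 with all cells and 1.31 without its top cell, and that of Mki67 was 2.47 with all cells and 0.873, lower in KO, without its top cell.

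Lower in KO in venous-gate cells were B3gnt3 (-0.434), Bgn (-1.125), Edn1 (-0.782), Ehd4 (-0.786), Entpd1 (-0.459), Fstl1 (-0.72), Gja1 (-0.521), Plvap (-0.276), Vcam1 (-1.0). In capillary-gate cells the same genes stood at B3gnt3 (0.365), Bgn (1.518), Edn1 (1.14), Ehd4 (0.173), Entpd1 (0.279), Fstl1 (0.31), Gja1 (0.451), Plvap (0.37), Vcam1 (2.436). Bgn, the proteoglycan gene, had 129 molecules in KO and 348 in WT in venous-gate cells, and 56 in KO and 20 in WT in capillary-gate cells. Vcam1, the adhesion gene, had 19 in KO and 47 in WT in venous-gate cells, and 201 in KO and 38 in WT in capillary-gate cells. Edn1, the endothelin-1 gene, had 47 in KO and 100 in WT in venous-gate cells, and 56 in KO and 26 in WT in capillary-gate cells.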

How the results depend on the processing

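No paired analysis was possible because each genotype had 1 library, and for the same reason no replicate was left out. Over 17 alternatives, 116 summary values stayed within the limits set for them, 25 moved and 6 reversed. Of the values of single genes 1163 stayed, 262 moved and 4 reversed. The cause was not tested for any of them.

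The counts of called genes depended on the minimum number of molecules. With at least 1 molecule 1075 genes were higher and 1249 lower in KO than in WT, 323 were higher than in capillary-gate cells, and 356 were higher and 221 lower than in HEV-gate cells. With at least 50 molecules 102 were higher and 115 lower in KO, 84 higher and 131 lower than in capillary-gate cells, and 86 higher and 45 lower than in HEV-gate cells. Fewer genes are measured at the higher minimum.

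In Ackr1 cells alone the medians of KO over WT were -0.0437 in the interferon list, 0.3487 in the immediate early list and -0.4287 in the matrix list, all with the sign turned. There 182 genes were higher in KO, and 50 higher and 41 lower than in HEV-gate cells, and the log2 ratios of Mest (-2.7506), Flrt2 (-0.1656) and Cthrc1 (0.5713) reversed. In cells with no Ackr1 the medians were 1.4297 for MHC class II and -1.2668 for immediate early genes, and the share of venous-gate cells differed by 0.4827 points the other way. Without cells holding Gja5 or Bmx, the Ptprj log2 ratio over capillary-gate cells was -0.008 in KO.

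In male cells the interferon median was 1.1471, the immediate early median -0.2046 and the share difference 1.5128 points, with 88 genes higher than in capillary-gate cells and 138 higher than in HEV-gate cells. With a mitochondrial limit of 10% the interferon median was 1.1628 and the share difference 1.2539 points, with 103 genes higher than in capillary-gate cells and 147 higher than in HEV-gate cells. A gate sum of at least 5 gave an MHC class II median of 3.189, and a mean over cells an immediate early median of -0.0847. Female cells were not run, with 16 members in KO.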

Other observations

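Proliferation genes were read from few venous-gate cells. At least 2 molecules of Mki67 and Top2a together were found in 3 cells of KO and 6 of WT. Of 11 measured cell cycle genes 10 were higher in KO, 3 of them at least 2-fold (Mcm5, Mki67 and Top2a), with a median log2 ratio of 0.69. Without their top cells Mcm5 alone of these 3 stayed past 2-fold, at 2.10, and Mki67 turned lower in KO, at 0.873. Autophagy genes, to which the deleted gene belongs, had a median of -0.02 over 21 measured members, of which 10 were higher in KO and 11 lower.

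Flow-responsive genes were mostly lower in KO: 9 of 12 were lower, and Klf2 and Nos3 were past 2-fold. Without their top cells Nos3 stayed past it, at a ratio of 0.414, and Klf2 was at 0.504. In Ackr1 cells 6 of 11 were lower, with a median log2 ratio of -0.02. Klf2, a transcription factor gene induced by laminar flow, was at 164 CPM in KO and 387 in WT, and Nos3, the endothelial nitric oxide synthase gene, at 111 CPM in KO and 301 in WT. Ccl2, the gene of a monocyte chemokine and named after its values were seen, had 122 molecules in KO and 0 in WT, and 118 of them lay in 1 cell.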
